A study of Homo sapiens with 36 samples.

Results

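The genes described here were 3 small heat shock protein genes (HSPB1, HSPB8 and CRYAB) and the 6 genes of the BAG family (BAG1 to BAG6). They were the rows of the deposited gene count table whose Ensembl identifiers carry these symbols, 9 of 61587 genes. Of these, 8 passed the filter of 10 counts in all over the 3 untreated vector libraries, and CRYAB, with 2 counts there, did not and is described from its counts. RNA was sequenced from TXNL1 knockout cells of the HEK293T line, which was derived from human embryonic kidney. TXNL1 encodes a thioredoxin-like protein that binds the proteasome. Knockout cells were grown from single sorted cells, all 12 groups carry the knockout, and each line then received a lentiviral construct. The number of clones used is not given in the sources used here. The 4 lines carried empty vector, wild-type TXNL1 (WT), TXNL1 with D162R and R234D substitutions in its proteasome-binding surface (D162R R234D), or TXNL1 with its catalytic thioredoxin cysteines changed (SxxS). Cells of each line were untreated (labelled DMSO), or exposed for 6 h to 100 µM arsenite, which reacts with protein thiols, or to 600 µM hydrogen peroxide, an oxidant. Each of the 12 groups had 3 replicates, 36 libraries in all. The methods describe treatment in triplicate in multi-well plates, and the labels do not say that replicates were separate cultures beyond this, so the p-values below measure the spread between libraries, which may be technical.

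Small heat shock proteins bind unfolding proteins without using ATP and hold them for refolding. Most BAG proteins bind the ATPase domain of HSP70 through a shared BAG domain, release its nucleotide and so its client, and connect HSP70 to other machinery. BAG1 links it to the proteasome, BAG3 joins it to HSPB8 and HSPB1 in selective autophagy of aggregates, and BAG6 holds membrane proteins that have not reached a membrane. BAG3, HSPB1 and CRYAB are known as targets of heat shock factor 1, which binds inverted repeats of GAA and TTC.

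The promoter sequences shown are those of the 4 members whose windows held a searched motif. Whether a motif goes with the response was not tested. RefSeq (GRCh38.p14) held 9 promoter entries for 7 of the members, and none for BAG4 or CRYAB. The 250 bases before each start were searched on both strands for GAANNTTC and TTCNNGAA, each of which is its own reverse complement. GAANNTTC was found in 5.78% of all 35116 promoters in the table and TTCNNGAA in 6.62%, and 11.6% held at least 1 of them. GAANNTTC was found in HSPB1 (chr7:76302423-76302672, plus strand), HSPB8 (chr12:119178681-119178930, plus strand) and BAG2 (chr6:57172076-57172325, plus strand), 182, 88 and 124 bases before the start. For HSPB8 this is the RefSeq start at 119178931, which lies inside the gene span given below, beginning at 119171555. Neither GAANNTTC nor TTCNNGAA was found in the windows of BAG1, BAG3, BAG5 or BAG6. TGACTCA, the site bound by AP-1 factors, was added to the search after the sequences had been seen. It lies 19 bases before the start of BAG3 (chr10:119651130-119651379, plus strand), overlaps no match to the other motifs, and with its reverse complement TGAGTCA occurs in 4.20% of all promoters. A match is a description of these letters and not a measured site. Capitals mark the match in each 250-base window, written 5′ to 3′ on the strand of the gene.
HSPB1: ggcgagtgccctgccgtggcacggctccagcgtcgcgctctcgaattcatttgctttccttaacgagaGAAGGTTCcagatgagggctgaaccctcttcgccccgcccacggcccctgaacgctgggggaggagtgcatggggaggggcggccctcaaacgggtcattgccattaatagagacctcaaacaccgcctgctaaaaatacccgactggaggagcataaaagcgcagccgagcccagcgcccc
HSPB8: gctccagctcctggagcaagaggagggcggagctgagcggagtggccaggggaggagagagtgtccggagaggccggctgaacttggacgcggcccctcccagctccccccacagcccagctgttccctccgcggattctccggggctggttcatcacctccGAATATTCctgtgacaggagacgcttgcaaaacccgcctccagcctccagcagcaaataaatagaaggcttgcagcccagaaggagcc
BAG2: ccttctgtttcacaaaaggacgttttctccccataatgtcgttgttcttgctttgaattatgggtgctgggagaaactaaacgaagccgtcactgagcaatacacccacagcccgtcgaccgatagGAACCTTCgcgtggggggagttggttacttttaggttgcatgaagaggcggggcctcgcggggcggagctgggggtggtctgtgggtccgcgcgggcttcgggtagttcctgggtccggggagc
BAG3: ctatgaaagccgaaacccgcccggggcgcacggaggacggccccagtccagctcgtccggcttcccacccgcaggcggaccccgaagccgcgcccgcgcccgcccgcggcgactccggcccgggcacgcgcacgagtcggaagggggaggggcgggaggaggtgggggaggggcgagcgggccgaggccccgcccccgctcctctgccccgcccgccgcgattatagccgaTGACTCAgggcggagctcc

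The libraries held 42072410 to 174119002 counts, with medians of 60713487 in untreated, 60594904 in hydrogen peroxide and 82188010 in arsenite libraries. Levels are given as CPM, counts scaled to a common library total after TMM scaling. They are shares of each library's counts, so a rise or fall is relative to the other transcripts in that library. Amounts of RNA per cell or per culture were not measured. TXNL1 lay between 28.6 and 31.7 CPM in the 3 untreated vector libraries, and all 9 untreated libraries of the other lines were higher, with means of 54.4 ± 3.15 in WT, 62.9 ± 3.50 in D162R R234D and 53.4 ± 1.65 CPM in SxxS (SD, n = 3). Of 8 HEK293T markers, 5 had a median of at least 1 CPM in untreated cells, among them VIM, CDH2, KRT8 and KRT18, while PAX2 and NEFM were lower and SOX11 was at 0. Of 8 markers of other cell types none reached that level, 6 had a median of 0, and their summed level was 0.362 to 1.22 CPM in untreated, 0.524 to 1.73 CPM in hydrogen peroxide and 0.477 to 1.35 CPM in arsenite libraries. WT arsenite replicate 1 and WT hydrogen peroxide replicate 2 stood apart from their replicates. The SD of their log2 levels around the group median, across genes, was 0.546 and 0.624, against 0.0810 to 0.191 in the other 34 libraries. In both, HSPB1 and BAG1 were above, and BAG4 and BAG5 below, the other 11 libraries of the same treatment. For these 4 genes, fold changes averaged over the lines are given with and without both libraries.

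Arsenite raised BAG3 about 15-fold in every line, brought CRYAB from near 0 to a level above 1 CPM, doubled BAG1, and raised HSPB1 and HSPB8 by less. BAG4 and BAG5 fell together, and BAG2 and BAG6 moved by under 10% in opposite directions. Averaged over the 4 lines, 8 of the 8 tested members passed the test (edgeR's quasi-likelihood test, adjusted p under 0.05 over 22486 genes), 5 higher and 3 lower. Of all tested genes 68.8% did so, 37.4% higher and 31.5% lower, so a call in itself did not set the members apart. How many of all genes had arsenite and untreated ranges that did not overlap was not counted. Such separation, where given below, is therefore not read as particular to the members. The median log2 fold change of the members was 0.34, beside 0.06 over all tested genes.

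**Figure D1:**
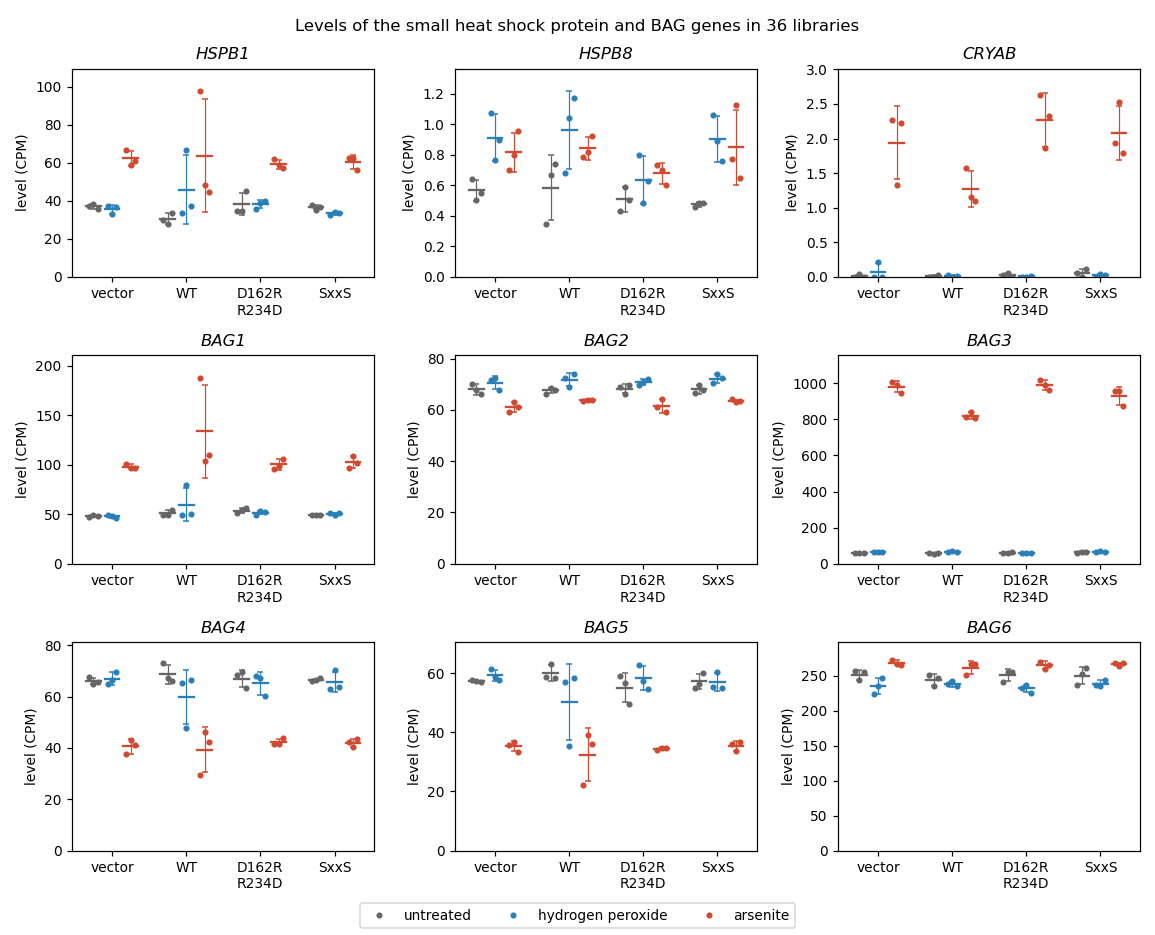
Level in CPM (vertical axis of each panel, from 0) of the 9 genes in the 4 lines (horizontal axis), with untreated libraries in grey, hydrogen peroxide in blue and arsenite in red. Points are libraries, horizontal bars are means and error bars are SD (n = 3). All 12 arsenite libraries lie above the untreated ones for BAG3, BAG1 and CRYAB and below them for BAG2, BAG4 and BAG5, and 1 WT library of each stress treatment lies apart for HSPB1, BAG1, BAG4 and BAG5. The share of all genes that separate in this way was not obtained.

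Among the small heat shock proteins, HSPB1 (ENSG00000106211, chr7:76302673-76304295, plus strand), an abundant chaperone that also binds actin, rose in each line. Its untreated level was 37.2, 38.5 and 35.7 CPM in vector, 30.0, 28.0 and 33.7 CPM in WT, 34.8, 34.7 and 45.2 CPM in D162R R234D, and 37.6, 35.3 and 36.6 CPM in SxxS. Under arsenite it was 66.8, 58.8 and 60.9 CPM in vector, 97.8, 48.0 and 44.8 CPM in WT, 61.7, 58.7 and 56.9 CPM in D162R R234D, and 62.4, 62.2 and 55.9 CPM in SxxS. The highest untreated library, of D162R R234D, was above the lowest arsenite library, of WT, and within each line the groups did not overlap. The log2 fold change averaged over the lines was 0.79 (SE 0.10, edgeR adjusted p = 5.87e-08), and 0.65 (adjusted p = 3.49e-16) without the 2 libraries that stood apart. In the WT line it was 1.06 (adjusted p = 7.68e-05), and 0.57 (adjusted p = 1.23e-06) without them. The counts assigned to the pseudogenes HSPB1P1 and HSPB1P2 did not exceed 12 in any library.

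HSPB8 (ENSG00000152137, chr12:119171555-119224855, plus strand), the small heat shock protein that pairs with BAG3, was low throughout. It ranged from 0.344 to 0.742 CPM (median 0.503) over the 12 untreated libraries and from 0.603 to 1.12 CPM (median 0.778) over the 12 arsenite libraries, and the ranges overlapped. Its averaged log2 fold change was 0.58 (SE 0.12, edgeR adjusted p = 0.000135). Within single lines it passed the test in SxxS (0.84, adjusted p = 0.00564), a call that was lost without SxxS arsenite replicate 2 (adjusted p = 0.0791), while the other lines gave 0.54 in vector, 0.53 in WT and 0.42 in D162R R234D.

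CRYAB (ENSG00000109846, chr11:111908564-111923722, minus strand), the lens chaperone alpha-B crystallin, was almost absent without arsenite. The 3 untreated libraries held 0, 2 and 0 counts in vector, 0, 0 and 2 in WT, 2, 4 and 0 in D162R R234D, and 4, 0 and 7 in SxxS. With arsenite they held 104, 170 and 255 counts in vector, 240, 48 and 101 in WT, 136, 152 and 185 in D162R R234D, and 150, 238 and 146 in SxxS. Every arsenite library was above every untreated one. Scaled for library size, the summed counts rose 160-fold in vector (exact 95% interval 44.1 to 1326), 113-fold in WT (31.0 to 935), 73.9-fold in D162R R234D (33.7 to 202) and 41.7-fold in SxxS (23.1 to 84.0). These intervals cover counting error only, and they overlap. If both mates of a pair were counted, fewer fragments stand behind these counts and the intervals are too narrow. When genes were not filtered, the averaged log2 fold change was 6.28 (SE 0.36, edgeR adjusted p = 3.96e-15). CRYAB shares 598 exon bases with HSPB2 on the opposite strand, and HSPB2 itself did not exceed 0.0386 CPM in any library.

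BAG3 (ENSG00000151929, chr10:119651380-119677819, plus strand) had the largest change among the tested members. Its untreated level was 56.9, 58.9 and 61.3 CPM in vector, 58.4, 55.7 and 59.7 CPM in WT, 61.2, 60.7 and 63.3 CPM in D162R R234D, and 61.3, 66.0 and 67.3 CPM in SxxS. Under arsenite the group means were 982 ± 30.8 CPM in vector, 821 ± 18.4 CPM in WT, 990 ± 29.1 CPM in D162R R234D and 930 ± 50.4 CPM in SxxS (SD, n = 3). No untreated library came near the arsenite range of 808 to 1021 CPM. The averaged log2 fold change was 3.93 (SE 0.03, edgeR adjusted p = 7.49e-37), a 15.3-fold rise, and the single lines lay between 3.82 in WT and 4.06 in vector.

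BAG1 (ENSG00000107262, chr9:33247820-33264720, minus strand), whose protein carries a ubiquitin-like domain, was the other BAG gene with a sizeable rise. It lay between 47.6 and 55.9 CPM (median 49.5) in untreated and between 95.9 and 187 CPM (median 101) in arsenite libraries. The ranges did not overlap, and the highest value was WT arsenite replicate 1, above a next highest of 109 CPM. The averaged log2 fold change was 1.09 (SE 0.07, edgeR adjusted p = 6.46e-14), and 0.99 (adjusted p = 1.38e-30) without the 2 libraries that stood apart.

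BAG4 and BAG5 went the other way. BAG4 (ENSG00000156735, chromosome 8), which binds and silences death receptors of the TNF receptor family, lay between 63.2 and 73.0 CPM (median 66.7) in untreated and between 29.6 and 46.0 CPM (median 42.1) in arsenite libraries. BAG5 (ENSG00000166170, chr14:103556545-103562657, minus strand), the member with several BAG domains in 1 protein, went from 49.5 to 63.0 CPM (median 57.4) to 22.3 to 39.0 CPM (median 35.3). Neither gene's ranges overlapped. The averaged log2 fold changes were -0.71 (SE 0.05, adjusted p = 1.84e-12) for BAG4 and -0.74 (SE 0.07, adjusted p = 1.56e-10) for BAG5, both by edgeR, and both genes passed in each of the 4 lines. Without the 2 libraries that stood apart they were -0.68 and -0.71, and still called.

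BAG2 (ENSG00000112208, chr6:57172326-57189833, plus strand), an inhibitor of the ubiquitin ligase CHIP, was 66.0 to 70.1 CPM in untreated and 59.1 to 64.2 CPM in arsenite libraries, a small difference with no overlap (log2 fold change -0.12, SE 0.02, edgeR adjusted p = 2.65e-05). BAG2 shares 2842 exon bases with RAB23 on the opposite strand, and RAB23 fell by 0.71 on the log2 scale (adjusted p = 4.47e-12). Whether the counting used strand is not given in the sources used here, so reads of the pair may not be told apart. BAG6 (ENSG00000204463, chr6:31639028-31652705, minus strand) was 235 to 261 CPM in untreated and 252 to 273 CPM in arsenite libraries, which overlapped. Its log2 fold change of 0.09 (SE 0.02, edgeR adjusted p = 0.000815) lost its call when libraries were scaled by total counts (0.05, adjusted p = 0.0986) or genes were not filtered (0.06, adjusted p = 0.135).

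**Figure D2:**
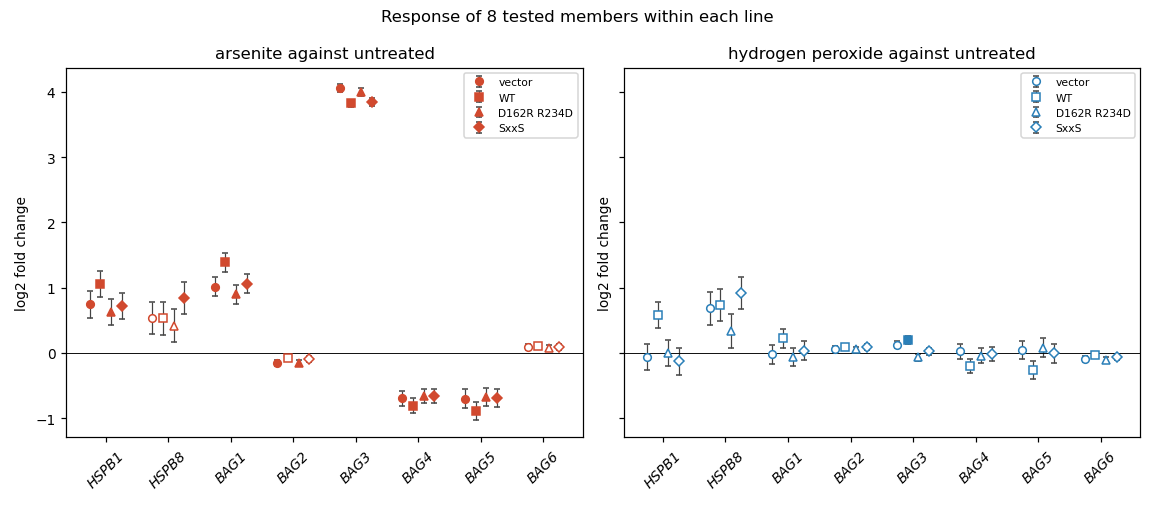
Log2 fold change against untreated cells (vertical axis) of the 8 tested members (horizontal axis) in each line, for arsenite (left) and hydrogen peroxide (right). Symbols mark the line, error bars are standard errors, and filled symbols passed an adjusted p of 0.05. BAG3 lies between 3.82 and 4.06 in all 4 lines under arsenite, and the 1 filled symbol for hydrogen peroxide is BAG3 in WT at 0.20.

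Within single lines, the test called 5 members under arsenite in WT, beside 53.6% of all tested genes there. It called 6 in each of the vector, D162R R234D and SxxS lines, beside 43.4%, 44% and 43.6%. HSPB1, BAG1, BAG3, BAG4 and BAG5 were called in all 4 lines with the directions above, but HSPB1 in D162R R234D lost its call with unfiltered genes (adjusted p = 0.0540) and without untreated replicate 1 (0.0531) or 2 (0.0537) of that line. BAG2 was called in vector (-0.15) and D162R R234D (-0.15), and gave -0.08 in WT and -0.10 in SxxS. Both BAG2 calls were lost with unfiltered genes (adjusted p = 0.0830 and 0.0546), and that in D162R R234D also without its arsenite replicate 3 (0.0582). BAG2 gained a call under 3 of 45 alternatives in WT and 6 in SxxS. Without the 2 libraries that stood apart it was called in both (edgeR adjusted p = 0.0463 and 0.0102). In that fit 11902 of 22486 tested genes were called in WT and 12822 in SxxS. BAG6 was called in no single line, with values of 0.08 to 0.10. It gained a call under 4 alternatives in WT, among them without those 2 libraries (adjusted p = 0.0300). In vector it gained 1, in a fit of the groups compared (0.0261).

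Levels of different genes can be compared per length of transcript. With the length deposited for each gene, the untreated order was BAG6 (39.4 ± 1.34 CPM per kilobase, SD over 12 libraries), BAG3 (22.3 ± 1.24), HSPB1 (21.9 ± 2.64), BAG4 (13.9 ± 0.511), BAG5 (11.3 ± 0.630), BAG2 (10.2 ± 0.213), BAG1 (7.15 ± 0.380), HSPB8 (0.149 ± 0.0310) and CRYAB (0.00590 ± 0.00794). BAG3 and HSPB1 did not differ beyond their spread. With the longest coding transcript of GENCODE release 44 as the length, HSPB1 stood at 43.9 and BAG3 at 23.8 CPM per kilobase and HSPB1 came before BAG3, and BAG1 at 13.2 passed BAG5 at 11.8 and BAG2 at 10.2. Under arsenite BAG3 was first at 340 ± 27.8 CPM per kilobase, followed by BAG6 at 42.0 ± 0.876 and HSPB1 at 37.7 ± 8.05, and CRYAB (0.431 ± 0.119) passed HSPB8 (0.222 ± 0.0405). The HSPB1 spread included WT arsenite replicate 1 at 60.3. By group, HSPB1 was below BAG6 in vector (38.3 ± 2.55 against 42.5 ± 0.622), D162R R234D (36.4 ± 1.49 against 42.0 ± 0.857) and SxxS (37.1 ± 2.28 against 42.2 ± 0.365). In WT, with that library, they were 39.1 ± 18.3 and 41.4 ± 1.42 (SD, n = 3). With the longest coding transcript HSPB1 (75.4 ± 16.1, with that library at 120) and BAG6 (67.8 ± 1.41) changed places, and their ranges overlapped.

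The make-up of the BAG transcripts changed accordingly. BAG3 made up 20.5 to 22.5% of the summed BAG level per kilobase in the 4 untreated group means and 78.0 to 81.7% in the 4 arsenite group means. The lowest arsenite share was WT, with 77.5, 78.6 and 78.0% in its replicates, against 79.4 to 82.2% in the other lines. The mean sum was 103 to 105 CPM per kilobase in the 4 untreated groups, and 385 in WT, 422 in SxxS, 440 in vector and 443 in D162R R234D under arsenite (n = 3). With the longest coding transcript the shares were 16.5 to 18.1% and 71.6 to 76.2%.

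**Figure D3:**
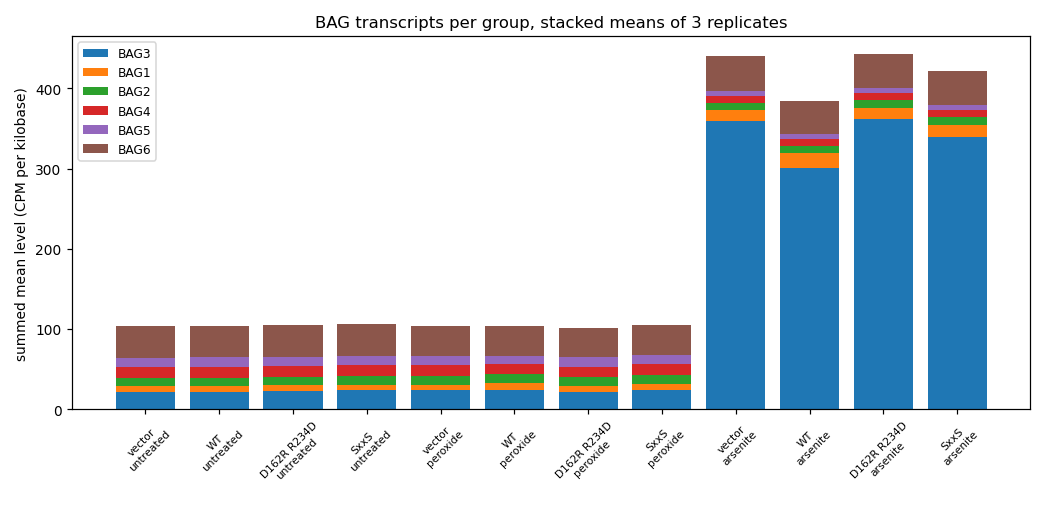
Mean level per kilobase of the 6 BAG genes (vertical axis, CPM per kilobase of deposited length, stacked from 0) in the 12 groups (horizontal axis), each the mean of 3 replicates with no error drawn. BAG3, the lowest block, makes up 20.5 to 23.5% of the bar in untreated and hydrogen peroxide groups and 78.0 to 81.7% in arsenite groups, where the other blocks together stay of similar size.

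Hydrogen peroxide left most members near their untreated level. Averaged over the lines, 3 of the 8 tested members were called, beside 12.1% of all tested genes. HSPB8 had the largest value at 0.67 (SE 0.13, edgeR adjusted p = 0.000392), from a median of 0.503 to one of 0.843 CPM (range 0.485 to 1.17), with overlapping ranges. It was called under all 45 alternatives. BAG2 was called at 0.07 (adjusted p = 0.0368) and BAG6 at -0.08 (adjusted p = 0.0240), changes of about 5%. The BAG2 call was lost under 18 of 45 alternatives (highest adjusted p = 0.235) and the BAG6 call under 3 (highest adjusted p = 0.410). BAG3 was 58.2 to 70.9 CPM and gave 0.07 (adjusted p = 0.0920). HSPB1 (0.09), BAG1 (0.04), BAG4 (-0.06) and BAG5 (-0.03) had adjusted p from 0.578 to 0.842, and without the 2 libraries that stood apart gave -0.0031, -0.03, -0.03 and 0.01, none of them called. CRYAB stayed between 0 and 10 counts, with the 10 in vector replicate 2, and without a filter gave -0.30 (SE 0.78, edgeR adjusted p = 0.999953).

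In single lines hydrogen peroxide gave 1 call among the members, BAG3 in WT, beside 8.06% of all tested genes in WT, 1.35% in vector, 1.03% in D162R R234D and 1.02% in SxxS. BAG3 in WT was 58.4, 55.7 and 59.7 CPM untreated and 62.5, 70.9 and 66.0 CPM with hydrogen peroxide, a log2 fold change of 0.20 (SE 0.05, edgeR adjusted p = 0.0229). The 70.9 CPM was WT hydrogen peroxide replicate 2, and without both libraries that stood apart the value was 0.14 (adjusted p = 0.0578). In the other lines edgeR called 0 members, and at an unadjusted p under 0.05 there were 3 in vector (BAG3, BAG6 and HSPB8), 1 in D162R R234D (BAG6) and 1 in SxxS (HSPB8). Of all 22486 tested genes, 2542, 2408 and 2208 were under that unadjusted threshold in these lines, so the counts are not read as particular to the members. DESeq2 called 0, 0 and 1 in these lines.

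Both responses above share the untreated libraries, so arsenite and hydrogen peroxide were also compared with each other directly. Of the 8 tested members 7 were called, beside 68.7% of all tested genes, with BAG3 (3.86, SE 0.03, edgeR adjusted p = 1.36e-36), BAG1 (1.05), HSPB1 (0.69) and BAG6 (0.17) higher under arsenite and BAG2 (-0.19), BAG4 (-0.65) and BAG5 (-0.71) lower. Without the 2 libraries that stood apart BAG1 gave 1.02, HSPB1 0.66, BAG4 -0.65 and BAG5 -0.72, and all 4 were still called. HSPB8 gave -0.08 (SE 0.12, adjusted p = 0.538).

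The lines with a TXNL1 construct were compared with the vector line. Each construct was carried by a single line, so an effect of TXNL1 or of its proteasome binding cannot be told apart from other differences between lines. In untreated cells edgeR called 0 members in WT, D162R R234D and SxxS, beside 0.196%, 0.0267% and 0.0178% of all tested genes. DESeq2 called 0 in each, and at an unadjusted p under 0.05 there were 0, 0 and 1, the 1 being BAG3 in SxxS (0.14, SE 0.05). Of all 22486 tested genes, 1574, 702 and 744 were under that unadjusted threshold. HSPB1 in WT gave -0.28 (SE 0.20), and in a fit of these groups alone it was called (-0.27, adjusted p = 0.0284).

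Under arsenite, BAG3 was lower in WT than in vector. The WT libraries were at 813, 842 and 808 CPM, below vector at 1007, 992 and 948 CPM, D162R R234D at 1021, 988 and 962 CPM, and SxxS at 959, 959 and 872 CPM. All 3 WT libraries lay below the 9 libraries of the other lines. The log2 difference from vector was -0.26 (SE 0.05, edgeR adjusted p = 0.0132), the 1 call among the members, beside 1.33% of all tested genes. Without the 2 libraries that stood apart it was -0.26 (adjusted p = 0.000978). The call was lost without vector arsenite replicate 1 (adjusted p = 0.0701), without vector arsenite replicate 2 (0.0619), with unfiltered genes (0.134) and in a fit of the 2 groups alone (0.687).

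The same comparison for HSPB1 turned on 1 library. WT replicates 2 and 3, at 48.0 and 44.8 CPM, lay below all 9 libraries of the other lines (55.9 to 66.8 CPM), and replicate 1 at 97.8 CPM lay above them. With all libraries the log2 difference was 0.04 (edgeR adjusted p = 0.929), and without the libraries that stood apart it was -0.43 (adjusted p = 0.00394). In that second fit untreated WT was also below untreated vector, though not called (-0.28, SE 0.08, adjusted p = 0.0503). The arsenite response of HSPB1 there was 0.57 in WT, 0.72 in vector, 0.62 in D162R R234D and 0.70 in SxxS. Its interaction of line and arsenite was not called (adjusted p = 0.870). BAG1 gave 0.45 (SE 0.14, adjusted p = 0.0996) with all libraries and 0.12 (SE 0.05, adjusted p = 0.220) without those that stood apart.

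**Figure D4:**
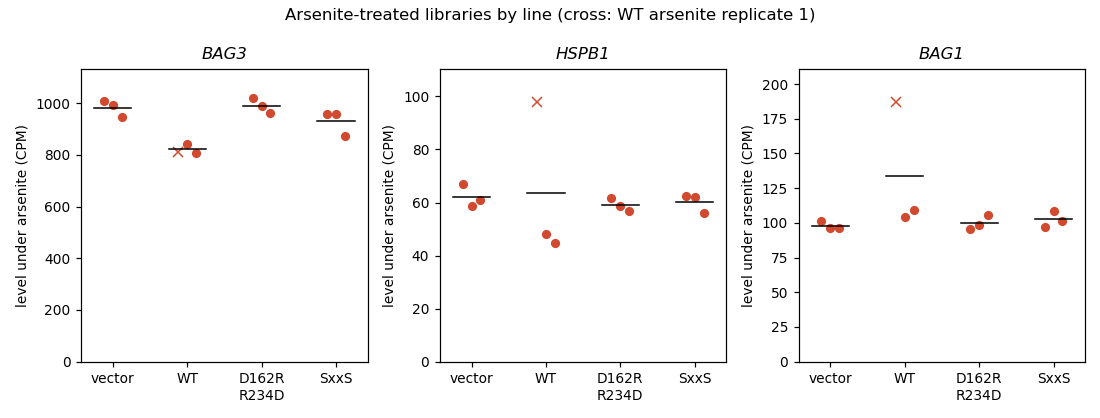
Level in CPM under arsenite (vertical axes, from 0) of BAG3, HSPB1 and BAG1 in the 4 lines (horizontal axes), with points for libraries, bars for means of 3, and a cross for WT arsenite replicate 1. BAG3 is lower in all 3 WT libraries (808 to 842 CPM), while the cross is the highest library for HSPB1 (97.8 CPM) and BAG1 (187 CPM).

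For D162R R234D and SxxS under arsenite, edgeR called 0 members (0.0222% and 0.0267% of all tested genes), DESeq2 called 0, and 0 had an unadjusted p under 0.05. Of all 22486 tested genes, 720 and 777 had such a p. The difference of BAG3 from vector was 0.01 (SE 0.05) in D162R R234D and -0.08 (SE 0.05) in SxxS. Whether the response differs between lines was tested as an interaction. For arsenite edgeR called 0 members and 0% of all tested genes, with BAG3 at an unadjusted p of 0.00965 (edgeR adjusted p = 0.698), and at an adjusted p of 0.102 without the libraries that stood apart. For hydrogen peroxide it called 0 members beside 0.685% of tested genes, with BAG3 at an adjusted p of 0.343. DESeq2 also called 0 in both, and BAG3 was the 1 member under 0.05 before adjustment in each. Of all 22486 tested genes, 1432 for arsenite and 1970 for hydrogen peroxide were under 0.05 before adjustment.

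The partners of these genes were described by lists, with edgeR calls averaged over the lines and the lists chosen with earlier results known. Their counts stand beside 37.4% of all tested genes higher and 31.5% lower with arsenite, and 12.1% called with hydrogen peroxide, so several are near the share of all genes and none is read as particular to its list. Of 7 genes that work with BAG3 in selective autophagy, 4 rose with arsenite and 0 fell, with a median log2 fold change of 0.71. They were SYNPO (1.45), an actin-binding scaffold, DNAJB6 (1.13), an HSP40 chaperone, SQSTM1 (0.82), the autophagy receptor p62, and HDAC6 (0.71), which carries aggregates along microtubules. SYNPO was low, with medians of 0.444 CPM untreated and 1.34 CPM with arsenite and overlapping ranges. STUB1, which encodes the ligase CHIP, gave 0.16 (adjusted p = 0.0604). With hydrogen peroxide SQSTM1 rose by 0.23 and HDAC6 fell by 0.31 on the log2 scale, and the other 5 were not called.

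Of 10 HSP70 genes and nucleotide exchange factors, 3 rose and 2 fell with arsenite (median 0.07). HSPA6, a strictly stress-induced HSP70, rose by 9.43 on the log2 scale from a median of 1.12 to 860 CPM, HSPH1, an exchange factor unrelated to BAG proteins, by 1.55, and HSPA4 by 0.27. HSPA8, the constitutive HSP70, fell by 0.64 and HSPA2 by 0.51. HSPA1A (0.20) and HSPA1B (-0.10), near-identical copies whose reads the counting may split, were not called. With hydrogen peroxide 2 rose, HSPA2 (0.28) and HSPA1B (0.17).

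Of 7 genes of the BAG6 complex and of the insertion of tail-anchored proteins, 3 rose and 3 fell with arsenite (median 0.10). RNF126 (0.34), the ligase recruited by BAG6, CAMLG (0.32) and SGTA (0.14) rose, and UBL4A (-0.67), a subunit of the BAG6 complex, GET1 (-0.34) and GET3 (-0.26) fell. With hydrogen peroxide UBL4A rose by 0.22 and GET1 fell by 0.16 on the log2 scale. Of 8 other genes listed with the small heat shock genes 3 could be tested. HSPB9 (0.65, adjusted p = 0.0294) and HSPB11 (0.16, adjusted p = 0.0212) rose with arsenite, while HSPB6 gave -0.15. HSPB11, whose current symbol is IFT25, is in the list by its older name only. Its ranges overlapped, at 17.2 to 21.0 CPM untreated and 18.0 to 31.8 CPM with arsenite. Neither HSPB9 nor HSPB6 reached 1 CPM in any library, and with hydrogen peroxide none of the 3 was called. Of the 3 heat shock factors HSF4 (0.59) and HSF2 (0.20) rose with arsenite, HSF1 gave 0.07 (adjusted p = 0.164), and none was called with hydrogen peroxide. HSF4 did not reach 1 CPM in any library.

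Some members start next to another gene on the opposite strand. With arsenite CHMP5, which starts 159 bases from BAG1, rose by 0.31 on the log2 scale. LSM1, 197 bases from BAG4, gave -0.03 (adjusted p = 0.675) where BAG4 fell. Its median was 41.3 CPM untreated and 39.0 CPM with arsenite, where the highest library was 56.7 CPM. Values without the 2 libraries that stood apart were not obtained for neighbouring or listed genes. COA8 and KLC1, 303 and 761 bases from BAG5, rose by 0.28 and 0.19 where BAG5 fell, and APOM, 289 bases from BAG6, gave 0.05 (adjusted p = 0.617).

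The genes whose levels ran most like each member were found by Pearson's r of log2 CPM over the 12 group means, among 15655 genes with a mean of at least 1 CPM. The group means share libraries and a strong arsenite difference, so high values are common. For BAG3 they were MAFF (0.999), DNAJB1 (0.999), PPP2CA (0.999), TRA2A (0.999) and EGR1 (0.999). The closest gene to BAG1 was DDX55 (0.997), to HSPB1 GMDS (0.993), to BAG4 ANKRD40 (0.999), to BAG5 ATRN (0.998), to BAG2 TIMM10B (0.990) and to BAG6 LNP1 (0.992). HSPB8 was below that mean and was not compared.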

How the data were processed

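The authors sequenced 36 libraries as 100-base paired reads with a strand-specific kit, aligned them to GRCh38 with QuasR and deposited raw counts per gene. The annotation release, the use of strand and the counting of mates are not given in the sources used here. Even counts were over-represented at low values (68757 counts of 2 and 28087 of 3), so halved counts were tried. Doses and exposure time come from the study's methods.

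Counts were fitted in edgeR 4.0.16 (R 4.3.3) with TMM scaling, 1 mean per group over 36 libraries and robust quasi-likelihood tests, for 22486 genes with at least 10 counts in all in untreated vector libraries. P-values were Benjamini-Hochberg adjusted over all tested genes and called under 0.05. Responses were contrasts within and averaged over lines. On simulated data with 2-fold changes in 200 of 22486 genes, 99.5% of these were recovered for the averaged arsenite contrast and 82.5% for the vector line. False calls were 10 of 209 and 2 of 167. Arsenite gave calls for 68.8% of genes in the data, so the simulation does not show how the test behaves with so many changes. Alternatives used DESeq2 1.42.0, other scalings and filters, a replicate block, fits of the groups compared and each library left out. The members, lists and tests were chosen with earlier results of these data known. The named genes were the members, TXNL1, these lists, neighbours within 1000 bases or overlapping, and the most alike genes. No replicate pair agreed within the sampling noise of independent counts (chi-square per degree of freedom of at least 3.18). If both mates were counted, sampling noise would be larger than this reference, by an amount not measured.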

Additional observations from a re-analysis of the deposited data

How the results depend on the processing

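Each comparison was recomputed under 9 other settings and with each of the 36 libraries left out. Of 6840 member values, 6759 kept their direction and their side of the threshold or were uncalled in both, 41 lost and 39 gained a call, and 1 turned from one direction to the other. That was HSPB1 in WT against vector under arsenite, at -0.43 (edgeR adjusted p = 0.00394) without both outlying WT libraries, beside 0.04 with them. The averaged arsenite count of 8 calls was 7 with total counts and 9 with filterByExpr, and 8 with any library left out. The call added with filterByExpr was CRYAB. Its counts pass that filter only through the arsenite groups, so the added call is no further evidence. The arsenite counts in single lines ran over all settings from 6 to 8 in vector, 5 to 7 in WT, 5 to 7 in D162R R234D and 5 to 7 in SxxS. With filterByExpr or no filter these counts also take in CRYAB, and so are out of 9 members rather than 8.

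The hydrogen peroxide count averaged over the lines (3) was 1 with no filter and 1 to 4 with a library left out, the 1 occurring without SxxS untreated replicate 3 or vector hydrogen peroxide replicate 1, where BAG2 and BAG6 lost their calls and HSPB8 did not. In WT under hydrogen peroxide the count (1) was 0 with total counts, no filter, a fit of the groups compared, or without both outlying libraries, 3 with DESeq2, and 0 to 3 with a library left out. It was 0 without WT untreated replicate 1 or 2 or WT hydrogen peroxide replicate 2, 2 without WT untreated replicate 3, WT hydrogen peroxide replicate 3 or WT arsenite replicate 3, and 3 without WT hydrogen peroxide replicate 1 or WT arsenite replicate 1. In D162R R234D under hydrogen peroxide the count (0) was 1, BAG6, without both outlying libraries. In SxxS it (0) was 1, HSPB8, with DESeq2, a fit of the groups compared or without both outlying libraries, and 0 to 1 with a library left out (1 without WT untreated replicate 1 or WT hydrogen peroxide replicate 2). Without both outlying libraries more of all genes were called too. Of 22486 tested genes, hydrogen peroxide then gave 2328 calls in D162R R234D and 1475 in SxxS, beside 231 and 229 with all libraries. For WT against vector the untreated count (0) was 1 in a fit of the groups compared. The arsenite count (1) was 2 with DESeq2 or without both outlying libraries, 0 with no filter or a fit of the groups compared, and 0 to 2 with a library left out (0 without vector arsenite replicate 1 or 2, and 2 without WT arsenite replicate 2 or 3 or WT hydrogen peroxide replicate 2). For WT against vector under arsenite, 665 of 22486 tested genes were called without both outlying libraries, beside 299 with them. The causes were not tested.

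With replicate number as a block the counts did not change, for example 8 for averaged arsenite and 3 for averaged hydrogen peroxide. The numbers do not pair the libraries: over 198 same-numbered pairs the correlation of deviations ran from -0.856 to 0.790 (median 0.0165), and 18 of 36 libraries were closest to one of their own number. The length of the RefSeq transcript was not used here, and the longest GENCODE coding transcript was added in its place after seeing the data. HSPB8 and CRYAB are limited by low counts.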
